A study of Mus musculus with 49 samples.

Results

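The genes described are 9 orphan G protein-coupled receptor genes known from striatal neurons: Gpr6, Gpr52, Gpr26, Gpr149, Gpr83, Gpr3, Gpr12, Gpr139 and Gpr101. They were taken from a list of names. Of the 52636 genes in the count table, 8 of the 9 were found by their Ensembl identifier, and Gpr52 was not analysed here. Gpr6 lies at chr10:41069977-41072285, Gpr26 at chr7:131966460-131994405, Gpr149 at chr3:62529077-62605140, Gpr83 at chr9:14860210-14870789, Gpr3 at chr4:133209340-133212536, Gpr12 at chr5:146582398-146585239, Gpr139 at chr7:119140747-119184603 and Gpr101 at chrX:57496668-57503757, all on GRCm38 and all annotated as protein-coding. Gpr26 and Gpr83 are on the forward strand and the other 6 genes on the reverse strand.

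RNA came from the nucleus accumbens (NAc) of C57BL/6J mice, 1 mouse per library, and was taken from medium spiny neurons (MSNs) marked through Drd1 or Drd2, the genes of the dopamine receptors that define the D1- and D2-MSN classes. For whole cell-FACS (8 D1 and 6 D2 libraries, male), fresh tissue was dissociated with papain and cells were sorted for a cytoplasmic fluorophore that the mice carried, as heterozygotes, under the Drd1 or Drd2 promoter. These 8 and 6 libraries are after further columns were summed with them, an assignment that is in doubt, as given under the processing. For nuclear-FACS (6 D1 and 5 D2, male), nuclei from frozen tissue were sorted for nuclear GFP in Drd1-cre or Drd2-cre mice crossed to Thy1-loxPSTOPloxP-EGFP-F. For RiboTag (6 D1 and 6 D2 male, 5 D1 and 5 D2 female), ribosome-bound RNA was purified through HA-tagged Rpl22 in Drd1-cre or Drd2-cre mice crossed to Rpl22-loxPexon4loxP-exon4-HA. In every method the marked cells are those in which the Drd1 or Drd2 promoter drives, or once drove, the transgene. The ages of the mice are not given in the sources used here. In bulk RNA of this kind, fewer cells that express a gene and less RNA per cell cannot be told apart.

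Orphan receptors are seven-transmembrane receptors whose natural ligand is unknown or disputed, and many of them signal without any added ligand. Gpr3, Gpr6 and Gpr12 form a closely related group that is constitutively active towards the stimulatory G protein and raises cyclic AMP, and Gpr26, Gpr52 and Gpr101 also raise cyclic AMP. Gpr83 has been proposed as a receptor for a peptide cut from the proSAAS precursor, and Gpr139, which signals mainly through Gq, responds to aromatic amino acids. Gpr149 has no settled ligand. In MSNs cyclic AMP is the signal that D1 receptors raise and D2 receptors lower, and Gpr6 and Gpr52 are known from the D2 class of striatal neurons.

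RefSeq upstream sequence (GRCm38.p6) was at hand for 5 of the 8 genes, Gpr6, Gpr3, Gpr12, Gpr83 and Gpr101. The 250 bases before the transcription start are shown for the group of relatives that are constitutively active, and for Gpr101, because these genes differ below in how they divide between D1- and D2-MSNs. Capitals mark the letters TGACG, searched on both strands (so also CGTCA), and the longer TGACGTCA, the palindrome known as the cyclic AMP response element, in which TGACG and CGTCA overlap.
Gpr6, reverse strand, chr10:41072291-41072540: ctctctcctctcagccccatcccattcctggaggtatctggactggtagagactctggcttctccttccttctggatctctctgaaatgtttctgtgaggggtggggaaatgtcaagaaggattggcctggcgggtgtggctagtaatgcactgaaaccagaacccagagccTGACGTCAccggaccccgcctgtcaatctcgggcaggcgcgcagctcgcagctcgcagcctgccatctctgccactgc
Gpr3, reverse strand, chr4:133212537-133212786: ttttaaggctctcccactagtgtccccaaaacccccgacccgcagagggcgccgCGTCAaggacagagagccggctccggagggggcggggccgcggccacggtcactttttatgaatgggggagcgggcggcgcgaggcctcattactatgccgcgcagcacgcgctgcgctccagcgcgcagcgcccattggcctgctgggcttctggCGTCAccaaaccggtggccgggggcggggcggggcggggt
Gpr12, reverse strand, chr5:146585240-146585489: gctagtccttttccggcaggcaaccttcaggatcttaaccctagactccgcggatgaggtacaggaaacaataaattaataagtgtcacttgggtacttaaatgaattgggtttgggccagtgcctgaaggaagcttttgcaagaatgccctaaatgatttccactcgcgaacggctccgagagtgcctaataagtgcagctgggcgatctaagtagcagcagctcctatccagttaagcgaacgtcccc
Gpr101, reverse strand, chrX:57503758-57504007: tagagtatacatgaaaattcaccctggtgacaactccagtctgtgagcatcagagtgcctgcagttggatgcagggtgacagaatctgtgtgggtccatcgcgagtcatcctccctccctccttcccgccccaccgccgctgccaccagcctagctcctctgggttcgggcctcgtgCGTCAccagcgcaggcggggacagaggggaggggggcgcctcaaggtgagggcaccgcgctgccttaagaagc

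Of these genes, only Gpr6 held the full TGACGTCA, which began 78 bases before its start and which 508 of 32851 promoter windows of the same length (1.55%) hold. The shorter TGACG was present in 17.8% of those windows. It stood at 196 and 40 bases before the start of Gpr3, 73 bases before that of Gpr101 and 71 bases before that of Gpr83, and it was not found in either of the 2 windows listed for Gpr12. A match of letters is a description of the window and says nothing of binding. No link between these letters and the D1-D2 differences was tested, and Gpr26, Gpr149 and Gpr139 had no sequence at hand. The coding sequences of Gpr6 and Gpr12 shared an identical run of 15 bases, ggctggaactgcttg, and no other pair of the 8 genes shared a run longer than 14 bases.

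Levels are given as CPM (counts scaled to a common library size) after TMM normalization within a method, and differences as log2 fold changes of D2 over D1, so that a positive value means higher in D2-MSNs. A gene was tested within a method if it passed the low-expression filter of that method, and was called if edgeR's quasi-likelihood test gave a Benjamini-Hochberg adjusted p of at most 0.05 and an absolute log2 fold change over 0.38. The filter was passed by 4 of the 8 genes in nuclear-FACS and by 5 of 8 in each of whole cell-FACS, RiboTag male and RiboTag female. A gene high in 1 cell type passes more easily, so the counts below are over tested genes and are no sample of the list.

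Libraries held between 3701255 and 68777008 counts. The limit that a count of 0 allows, 3 counts of a library's total, came to between 0.0436 and 0.811 CPM, which covers counting error only. It was taken on raw totals and so is not on the TMM scale of the CPM values. In RiboTag libraries the 10 genes with the most counts took 84.9 to 88.3% of the total, so other genes were measured on a small remainder. Among whole cell D2 libraries, numbers 2, 5 and 6 held 54.5, 20.2 and 38.3% of their counts in 10 genes, and nuclear D1 libraries held 20.3 to 66.9%. Drd1 was higher in every D1 than in every D2 library within each method, and Drd2 the reverse, so the labels of all 47 libraries fitted these genes, although nuclear D1 libraries still held 78.3 to 153 CPM of Drd2. Recovery of a simulated 2-fold change by the same test was 23% in nuclear-FACS, 29% in whole cell-FACS and 99% in each RiboTag comparison.

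Among the tested genes of the list, Gpr6 had the largest difference between MSN classes in whole cell-FACS, RiboTag male and RiboTag female. In whole cell-FACS its level ran from 1.94 to 10.1 CPM in D1 (median 3.37) and from 23.2 to 67.2 CPM in D2 (median 39.2). In RiboTag male it ran from 1.78 to 4.38 CPM in D1 (median 3.11) and from 10.0 to 13.7 CPM in D2 (median 12.8). In RiboTag female the D1 libraries had 1.39, 1.75, 1.90, 2.98 and 3.09 CPM and the D2 libraries 10.5, 10.6, 13.1, 13.6 and 14.8 CPM. Every D2 library was thus above every D1 library in these 3 comparisons. Gpr6 was higher in D2 by a log2 fold change of 3.21 ± 0.34 (SE) in whole cell-FACS, a 9.25-fold difference (edgeR adjusted p = 1.77e-05). The difference was 2.04 ± 0.13 or 4.12-fold in RiboTag male (edgeR adjusted p = 2.56e-11) and 2.51 ± 0.15 or 5.68-fold in RiboTag female (edgeR adjusted p = 4.85e-10). With each whole cell library left out in turn, D2 numbers 2, 5 and 6 included, the value ran from 3.10 to 3.66 and was called each time. In these comparisons 0.361, 1.30 and 1.02% of all tested genes were called higher in D2.

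In nuclear-FACS, by contrast, Gpr6 was not higher in D2. It ran from 1.82 to 5.97 CPM in the D1 libraries (median 2.53) and was 0, 0.925, 1.77, 1.94 and 2.25 CPM in the D2 libraries. The library at 0 is the shallowest of the series. On its raw total, without TMM scaling, a count of 0 allows up to 0.811 CPM. The classes overlapped and the log2 fold change of -1.12 ± 0.53 was not called (edgeR adjusted p = 0.162, 95% interval -2.26 to 0.03). Without the FPKM filter, in a fit scaled on more genes, it was -2.38 ± 0.71 and called higher in D1 (edgeR adjusted p = 0.0270). Of the 3 D2-MSN marker genes tested there, Drd2 was called higher in D2 (1.74 ± 0.21, edgeR adjusted p = 0.00221), and Penk, the enkephalin precursor gene, was called higher in D1 (-2.41 ± 0.46, edgeR adjusted p = 0.00923). The third, Adora2a, the gene of an adenosine receptor, was not called (-0.049 ± 0.206, edgeR adjusted p = 0.892). Of all genes tested in nuclear-FACS, 5.66% were called higher in D2 and 10.3% higher in D1. The nuclear values of Gpr6 rested on 9 to 245 counts per D1 library and 0 to 125 per D2 library.

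**Figure D1:**
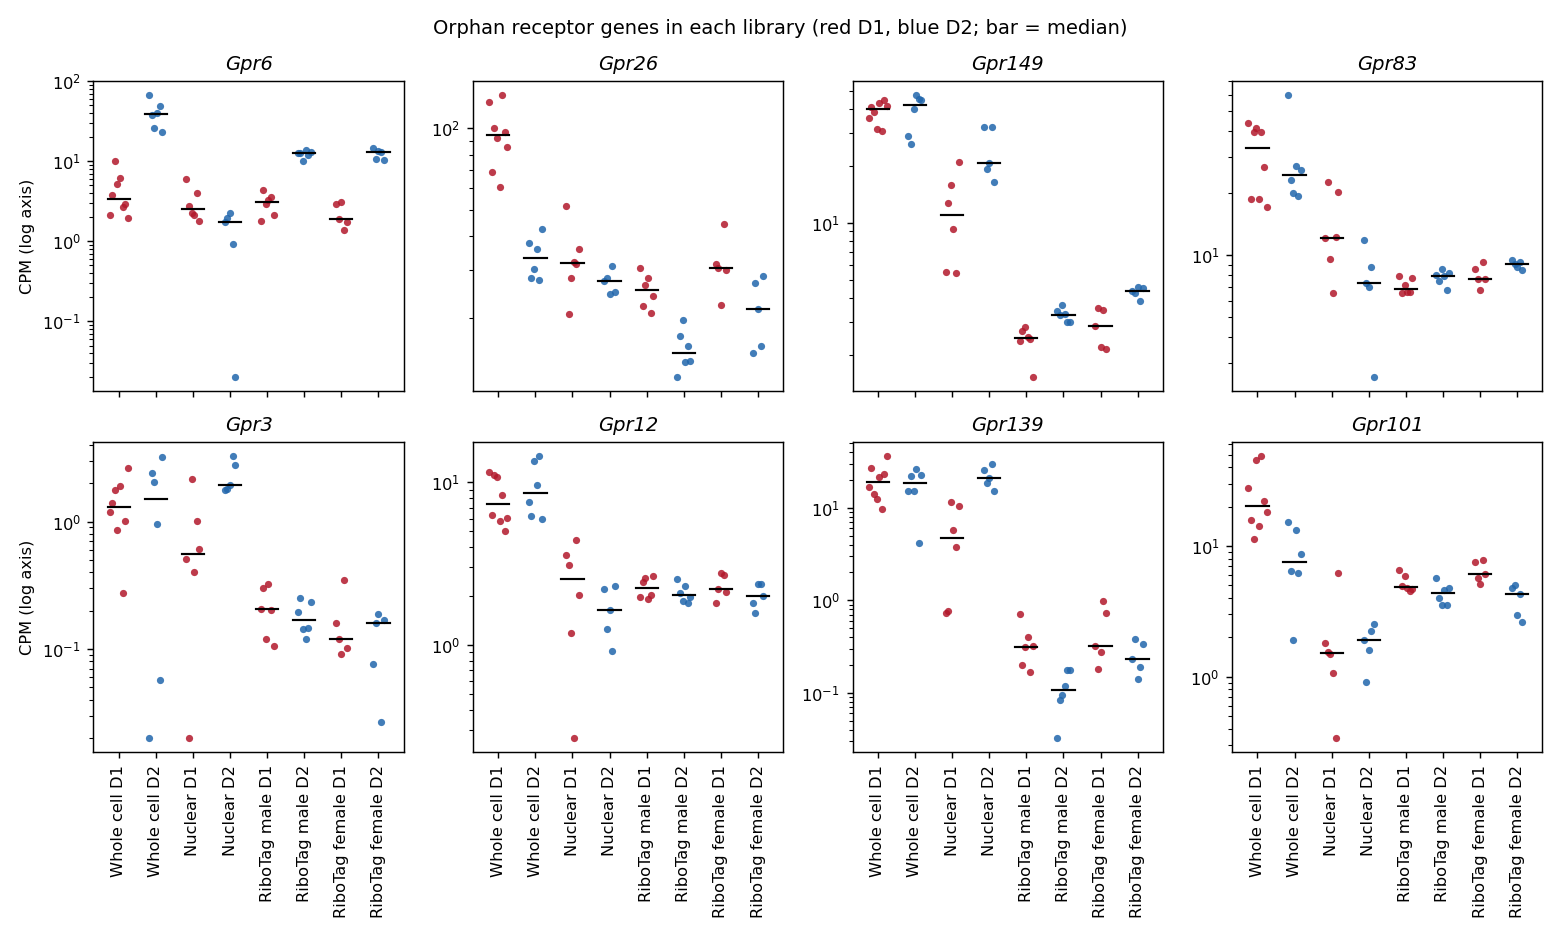
Level of each of the 8 genes in each library, in CPM on a log axis, with D1 libraries in red, D2 libraries in blue, a bar at the group median and a count of 0 at the lower edge of the axis. Gpr6 is higher in all D2 than in all D1 libraries of whole cell-FACS and both RiboTag sexes but not of nuclear-FACS, and Gpr26 runs the opposite way in whole cell-FACS and RiboTag male.

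Gpr26, which raises cyclic AMP without an added ligand, lay on the other side. In whole cell-FACS it ran from 61.0 to 133 CPM in D1 (median 94.5) and from 27.5 to 42.6 CPM in D2 (median 33.1). In RiboTag male it ran from 20.9 to 30.4 CPM in D1 (median 25.3) and from 12.0 to 19.7 CPM in D2 (median 14.8). The classes did not overlap in either comparison. Gpr26 was higher in D1 by 2.83-fold in whole cell-FACS (log2 fold change -1.50 ± 0.18, edgeR adjusted p = 8.83e-05) and by 1.65-fold in RiboTag male (-0.73 ± 0.10, edgeR adjusted p = 8.95e-06), where 0.783 and 2.58% of all tested genes were called higher in D1. The whole cell call rested on the FPKM filter, without which its adjusted p was 0.0602. With each library left out in turn it ran from -1.57 to -1.34 in whole cell-FACS and from -0.82 to -0.67 in RiboTag male, and was called each time.

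In RiboTag female the D1 libraries had 22.3, 30.1, 30.4, 31.6 and 44.2 CPM of Gpr26 and the D2 libraries 14.8, 15.7, 21.5, 26.8 and 28.5 CPM. Only 1 D1 library lay within the D2 range, and the log2 fold change of -0.57 ± 0.16 was not called (edgeR adjusted p = 0.0522). It was called without D1 number 4, the lowest D1 library, or without D2 number 2 or 6, with an adjusted p of 0.00935, 0.0278 and 0.0158. In 7 of the 10 omissions of a single library it stayed uncalled, with an edgeR adjusted p of up to 0.168. Over all 10 the value ran from -0.69 to -0.42. In nuclear-FACS Gpr26 ran from 20.6 to 51.5 CPM in D1 (median 31.8) and was 24.4, 24.8, 27.4, 28.0 and 30.9 CPM in D2. All D2 libraries thus lay within the D1 range (log2 fold change -0.30 ± 0.19, edgeR adjusted p = 0.296). That result depended on the genes used for scaling. Without the FPKM filter, in a fit scaled on more genes, it was -1.50 ± 0.32 and called higher in D1 (edgeR adjusted p = 0.00665). With summed exons as the length of the filter it was -1.45 (edgeR adjusted p = 0.00754).

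**Figure D2:**
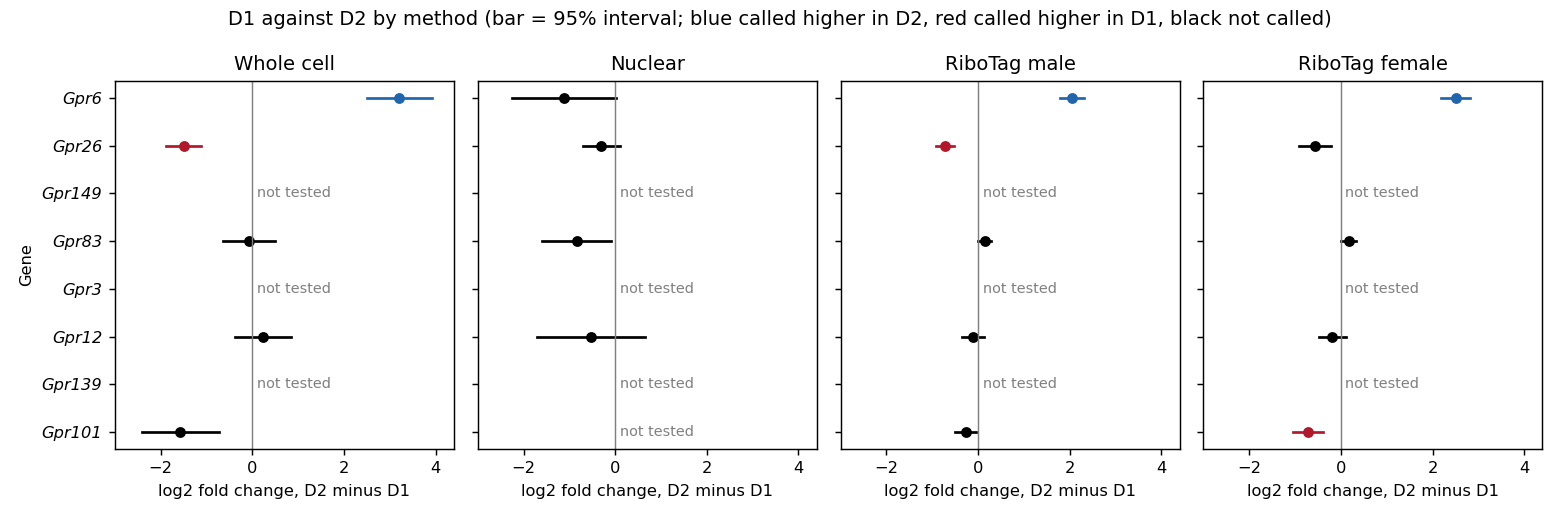
Log2 fold change of D2 over D1 for each gene in each comparison, with bars for the 95% interval, and "not tested" where a gene missed the expression filter. Gpr6 lies to the right at 3.21, 2.04 and 2.51 in whole cell-FACS, RiboTag male and RiboTag female and at -1.12 in nuclear-FACS, and Gpr26 lies to the left in all 4 panels.

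Gpr101, an X-linked receptor that raises cyclic AMP, was higher in D1 in RiboTag female. The D1 libraries had 5.08, 5.67, 6.11, 7.55 and 7.89 CPM and the D2 libraries 2.61, 2.95, 4.32, 4.74 and 5.06 CPM, so that the classes did not overlap, although the nearest values, 5.06 and 5.08 CPM, were almost equal. The log2 fold change was -0.72 ± 0.15, a 1.65-fold difference (edgeR adjusted p = 0.00701), and 1.57% of all tested genes were called higher in D1. In RiboTag male the ranges overlapped, at 4.497 to 6.51 CPM in D1 (median 4.88) and 3.53 to 5.66 CPM in D2 (median 4.34), and the log2 fold change of -0.27 ± 0.11 was not called (edgeR adjusted p = 0.147).

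The widest spread of Gpr101 was in whole cell-FACS, with 11.3 to 48.9 CPM in D1 (median 20.2) and 1.90 to 15.2 CPM in D2 (median 7.56). The log2 fold change there was -1.58 ± 0.40, or 2.98-fold higher in D1, and just missed the threshold (edgeR adjusted p = 0.0542). It passed by DESeq2 (adjusted p = 0.00946), and by edgeR without D1 number 8 or without D2 number 1 (adjusted p = 0.0307 and 0.0367). In 12 of the 14 omissions of a single library it stayed uncalled, with an edgeR adjusted p of up to 0.202. Over all 14 the value ran from -1.73 to -1.22. It also passed with the repeat run of D1 number 1 taken as a library of its own (edgeR adjusted p = 0.0329). With the lanes of D2 number 3 kept apart it passed too (edgeR adjusted p = 0.0285). By their names these columns are further runs of the same libraries, so keeping them apart would treat runs of 1 mouse as separate mice. Counted apart, however, the columns match the numbers of whole cell samples that the study gives, so which reading is right is not settled. Calls over all genes rose as well, to 369 and 546 against 187. Unless the columns come from separate mice, these fits are no further evidence for a Gpr101 difference. In nuclear-FACS Gpr101 missed the filter, at 0.340 to 6.26 CPM in D1 (median 1.53) and 0.917, 1.62, 1.90, 2.25 and 2.55 CPM in D2.

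The remaining members showed no called difference where tested. Gpr83, the proposed peptide receptor, ran from 6.56 to 7.93 CPM in D1 (median 6.89) and from 6.77 to 8.61 CPM in D2 (median 7.95) of RiboTag male, with a log2 fold change of 0.15 ± 0.07 (edgeR adjusted p = 0.224, 95% interval 0.00 to 0.29). In RiboTag female it was 6.80, 7.66, 7.69, 8.61 and 9.28 CPM in D1 and 8.47, 8.78, 9.06, 9.26 and 9.43 CPM in D2 (0.17 ± 0.08, edgeR adjusted p = 0.281, 95% interval 0.01 to 0.33). The ranges overlapped in both sexes.

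In nuclear-FACS the Gpr83 estimate pointed the other way at -0.84 ± 0.35, with 6.56 to 22.8 CPM in D1 (median 12.2) and 2.55, 7.02, 7.33, 8.75 and 11.9 CPM in D2 (edgeR adjusted p = 0.112). Without the FPKM filter, in a fit scaled on more genes, Gpr83 was called higher in D1 at -2.08 ± 0.44 (edgeR adjusted p = 0.00665). In whole cell-FACS it was 17.1 to 44.1 CPM in D1 (median 33.2) and 19.5 to 60.0 CPM in D2 (median 24.6). The log2 fold change of -0.07 ± 0.28 had an interval from -0.65 to 0.50, and its sign changed with DESeq2's size factors (0.09).

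Gpr12, a close relative of Gpr3 and Gpr6, overlapped between the classes in all 4 comparisons. Its log2 fold change was 0.23 in whole cell-FACS (95% interval -0.37 to 0.84), -0.53 in nuclear-FACS (-1.70 to 0.64), -0.11 in RiboTag male (-0.36 to 0.14) and -0.19 in RiboTag female (-0.48 to 0.11). Its levels were 5.04 to 14.6 CPM in whole cell, 0.268 to 4.41 CPM in nuclear and 1.57 to 2.76 CPM in RiboTag libraries. A log2 fold change of 2.04, the smallest of the called Gpr6 differences, lay outside all of these intervals.

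Gpr3 was lower per length than Gpr6 and Gpr12 in every RiboTag group and passed the filter in no method. RiboTag libraries held 1 to 13 counts of it, or 0.0270 to 0.347 CPM. The D1 and D2 means in RiboTag male, 0.210 ± 0.090 and 0.182 ± 0.054 CPM (SD, n = 6 each), differed by less than the spread between libraries (two-sided exact permutation test on log2 of CPM plus 0.1, p = 0.595), nor did those in RiboTag female (0.164 ± 0.105 and 0.124 ± 0.069 CPM, n = 5 each, exact permutation p = 0.516).

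Gpr139, the Gq-coupled receptor, was also too low in RiboTag to pass the filter. In RiboTag male it ran from 0.169 to 0.711 CPM in D1 (median 0.314, 5 to 24 counts) and from 0.0324 to 0.176 CPM in D2 (median 0.108, 1 to 6 counts). The exact permutation test gave p = 0.00649 for a mean difference of -1.02 on the log2 scale. In RiboTag female the D1 libraries had 0.181, 0.276, 0.320, 0.735 and 0.978 CPM and the D2 libraries 0.142, 0.189, 0.229, 0.337 and 0.384 CPM (difference -0.61, exact permutation p = 0.206). These 4 exact tests were chosen after the values had been seen, and D1 and D2 overlapped in both sexes.

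In nuclear-FACS Gpr139 ran the opposite way, from 0.731 to 11.6 CPM in D1 (median 4.74) against 15.1, 18.4, 20.8, 25.7 and 29.9 CPM in D2, and the classes did not overlap. It missed the filter there (without the FPKM filter, and so scaled on more genes, 1.11 ± 0.49, edgeR adjusted p = 0.0948). Relative to total counts, background was also higher in each of these D2 libraries than in any nuclear D1 library, as given below. In whole cell-FACS it was 9.73 to 36.3 CPM in D1 (median 19.1) and 4.14 to 26.2 CPM in D2 (median 18.5).

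Gpr149, a receptor with no settled ligand, missed the filter in all methods because FPKM was taken over a gene span of 76064 bases, of which 4288 are exonic. In RiboTag male it nevertheless ran from 1.52 to 2.82 CPM in D1 (median 2.46) and from 2.98 to 3.66 CPM in D2 (median 3.26). In RiboTag female it was 2.16, 2.21, 2.85, 3.44 and 3.53 CPM in D1 and 3.86, 4.26, 4.33, 4.52 and 4.58 CPM in D2. The classes did not overlap in either sex. Fitted without the FPKM filter, Gpr149 was called higher in D2 by 0.44 ± 0.11 in RiboTag male (edgeR adjusted p = 0.0138) and 0.63 ± 0.13 in RiboTag female (edgeR adjusted p = 0.00828), a 1.36- and a 1.54-fold difference. In those fits 1.40 and 0.960% of all genes were called higher in D2, and 3.11 and 1.59% higher in D1.

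In whole cell-FACS the classes overlapped for Gpr149, at 30.4 to 44.4 CPM in D1 (median 39.8) and 26.0 to 47.3 CPM in D2 (median 42.2). In nuclear-FACS it ran from 5.43 to 20.99 CPM in D1 (median 10.97) and was 16.5, 19.2, 20.8, 32.1 and 32.2 CPM in D2. Without the FPKM filter its log2 fold change was 0.22 in whole cell-FACS (95% interval -0.18 to 0.62) and 0.01 in nuclear-FACS (-0.57 to 0.58). Those fits were scaled on the larger gene set left without the filter, and the CPM values on the genes that passed it. The nuclear value of 0.01 is therefore not on the scale of the nuclear CPM values, which were mostly higher in D2.

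Counted over the list, 2 of 5 tested genes were called in whole cell-FACS (Gpr6 higher in D2 and Gpr26 higher in D1), where 1.14% of all tested genes were called. In RiboTag male the same 2 of 5 were called (3.88% of all), in RiboTag female Gpr6 and Gpr101 (2.59% of all), and in nuclear-FACS 0 of 4 by edgeR (16.0% of all, 5.66% higher in D2), 1 of 4 at an unadjusted p under 0.05 (Gpr83, beside 3009 or 32.6% of all 9228 genes) and 0 of 4 by DESeq2 (beside 2131 or 23.1% of all). Without the FPKM filter, 3 of 8 genes (Gpr6, Gpr26 and Gpr83) were called higher in D1 in nuclear-FACS. Their log2 fold changes moved from -1.12, -0.30 and -0.84 to -2.38, -1.50 and -2.08 in this fit, which was scaled on more genes. In it 26.2% of all genes were called (5.60% higher in D2 and 20.6% in D1) and the median over all genes moved to 0.26. In the same way 1 of 8, Gpr6, was called in whole cell-FACS (0.105% of all genes, 0.0569% higher in D2 and 0.0479% in D1), 3 of 6 in RiboTag male (4.51% of all) and 3 of 6 in RiboTag female (2.55% of all). The median log2 fold change of the tested genes was -0.07 in whole cell-FACS, -0.11 in RiboTag male, -0.19 in RiboTag female and -0.68 in nuclear-FACS, beside medians over all tested genes of -0.09, 0.00, 0.00 and 0.03. In whole cell-FACS the calls over all genes, 59 higher in D2 and 128 higher in D1, became 145 and 64 with DESeq2's size factors, which moved the median over all genes from -0.09 to 0.04. The calls of Gpr6 and Gpr26 held under both scalings.

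Levels of different genes were compared per length only, as FPKM, the fragments per kilobase of gene span scaled to an effective library size within each method. Gpr6 was the highest of the 8 in the D2-MSNs of whole cell-FACS (20.4 ± 13.4 FPKM, SD, n = 6), RiboTag male (5.35 ± 0.55, n = 6) and RiboTag female (5.42 ± 0.86, n = 5), where its libraries did not overlap those of the next gene. That next gene was Gpr12 in whole cell-FACS (3.69 ± 1.96 FPKM) and Gpr83 in RiboTag (0.736 ± 0.058 and 0.850 ± 0.043 FPKM). In D1-MSNs no gene stood apart at the top: the first 5 in RiboTag male, Gpr6, Gpr26, Gpr12, Gpr101 and Gpr83, ran from 1.30 to 0.664 FPKM and each overlapped the next. In whole cell D1 the order was Gpr101 (3.53 ± 2.57 FPKM, n = 8), Gpr26, Gpr83, Gpr12 and Gpr6 (1.82 ± 1.35), and in nuclear D1 it began with Gpr6 (1.89 ± 1.29, n = 6) and Gpr83 (1.74 ± 0.96), in both with overlap between neighbours. In nuclear D2 Gpr26 was highest (0.698 ± 0.054 FPKM, n = 5), and its libraries overlapped those of Gpr3 (0.516 ± 0.127).

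The library sizes were set within each method, so a level in FPKM was not compared between methods. With library sizes set over all libraries, Gpr6 in whole cell D2 moved from 20.4 to 6.17 FPKM and in RiboTag male D2 from 5.35 to 16.2 FPKM, so that the order of the methods turned.

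Gpr3, Gpr149 and Gpr139 formed a lower tier in all 4 RiboTag groups, at means of 0.0651 FPKM or less, and none of their libraries reached those of the 5 genes above. The tier depends on the length chosen. Per kilobase of summed exons, Gpr149 rose to 0.550 ± 0.102 in D1 and 0.755 ± 0.058 in D2 of RiboTag male (SD, n = 6), beside Gpr12 (0.894 and 0.830), whereas Gpr3 (0.0761 and 0.0661) and Gpr139 (0.0713 and 0.0234) stayed low. The order turned in other groups too. Per kilobase of summed exons, whole cell D1 was led by Gpr149 (8.07 ± 1.10, n = 8) and Gpr26 (7.84 ± 3.28), with Gpr101 at 4.62 ± 3.37, and nuclear D2 by Gpr149 (3.97 ± 0.82, n = 5) and Gpr139 (3.22 ± 0.53), with Gpr26 at 1.69 ± 0.13. On that scale Gpr6 was still highest in whole cell D2 (26.4 ± 17.4) and RiboTag male D2 (6.92 ± 0.72), and Gpr26 (2.16) lay above Gpr6 (1.68) in RiboTag male D1.

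**Figure D3:**
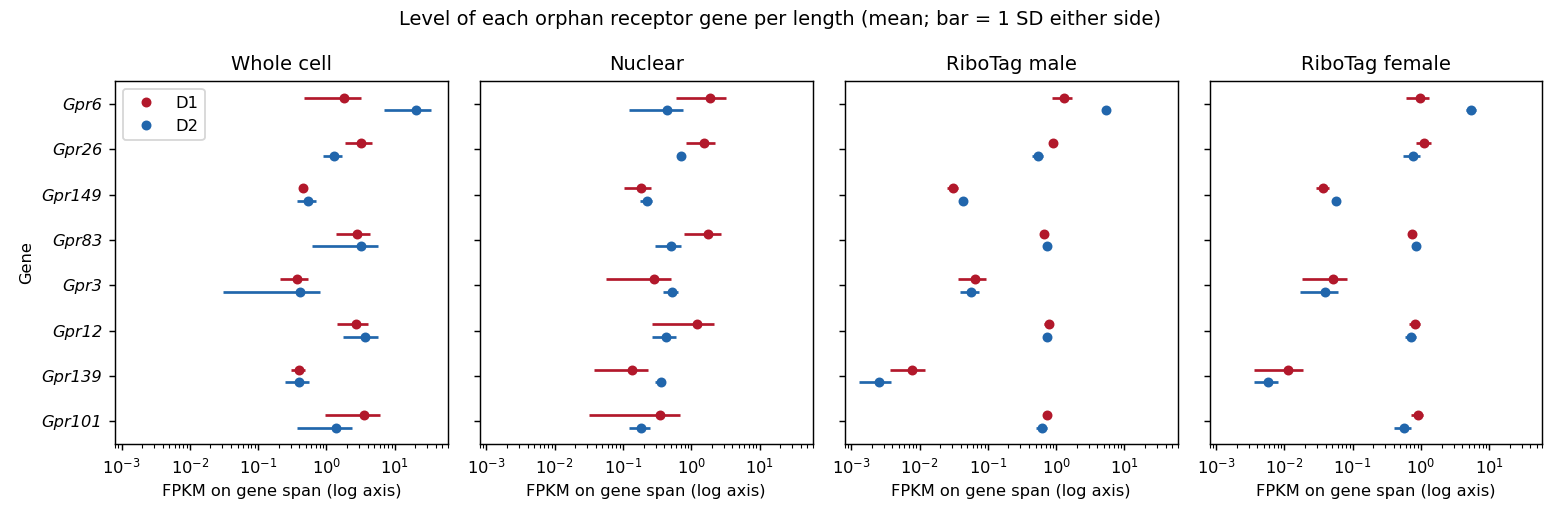
Mean FPKM on the gene span for each gene and group on a log axis, with D1 in red, D2 in blue and bars of 1 SD either side of the mean, where a lower bar that would pass 0 ends at the axis edge. Gpr6 in D2 reaches 20.4 FPKM in whole cell-FACS and over 5 FPKM in RiboTag, and Gpr3, Gpr149 and Gpr139 lie below 0.07 FPKM in RiboTag.

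Counts were taken over whole gene bodies, so reads that do not come from mature transcripts also enter them. As a gauge, counts per kilobase of each gene were divided by those of 1691 autosomal olfactory and vomeronasal receptor genes of the same library. Their counts as a whole were taken as background, and whether these neurons express any of them was not tested. These genes held 0.993 to 16.0 counts per kilobase in nuclear D2 libraries, 0.0510 to 7.63 in nuclear D1, 0.928 to 6.76 in whole cell and 0.00538 to 0.0186 in RiboTag libraries. These counts are not scaled to library size, so the ranges mix depth with background. In 4 of 5 nuclear D2 libraries this unscaled background was above that of every nuclear D1 library. The other, D2 number 7, had the smallest total of all libraries (3701255 counts) and held 0.993 counts per kilobase. By comparison, nuclear D1 number 5 held 0.0510 at 3837701 counts, and D1 number 1, the deepest library, 0.314 at 68777008 counts. Relative to total counts, background was higher in every nuclear D2 library than in every nuclear D1 library. No gene of the 8 was over 3 times the background in all nuclear D2 libraries, against 3 of 8 in nuclear D1 (Gpr6, Gpr26 and Gpr83), 4 of 8 in each whole cell group and 7 or 8 of 8 in the RiboTag groups.

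For Gpr6, the ratio to background was 0 to 4.21 in nuclear D2 and 6.53 to 338 in nuclear D1, against 46.2 to 510 in whole cell D2. In RiboTag it was 1606 or more in each D1 library and 12232 or more in each D2 library. Gpr139 lay at 1.49 to 2.05 times background in nuclear D2 and 1.76 to 4.91 times in nuclear D1. Its higher nuclear D2 level in CPM thus accompanied a background that, relative to total counts, was higher in all of the same libraries. Gpr149 was likewise at 0.940 to 1.22 times background in nuclear D2 and 1.21 to 8.95 times in whole cell, but at 60.1 times or more in RiboTag. The part of background in the nuclear differences was not tested beyond subtracting it, after which again none of the 4 receptors tested in nuclear-FACS was called.

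**Figure D4:**
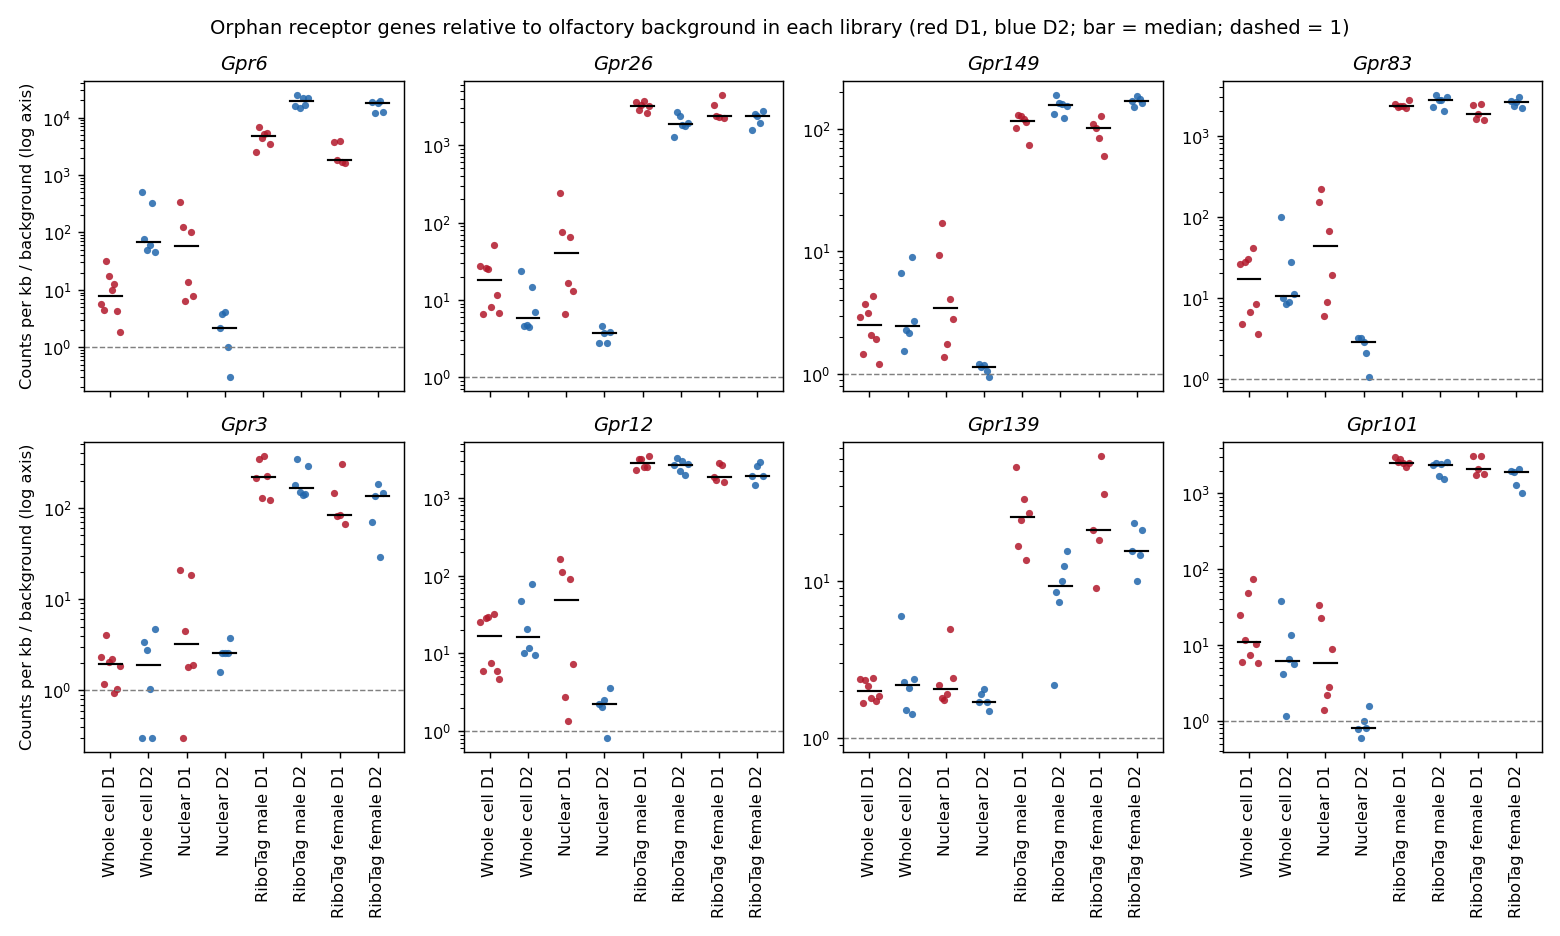
Counts per kilobase of each gene divided by those of olfactory and vomeronasal receptor genes in the same library, on a log axis with a dashed line at 1 where the lowest values and counts of 0 are drawn at the lower edge. Bars mark medians, and D1 is red and D2 blue. Nuclear D2 libraries lie near the line for all 8 genes, for instance at 0 to 4.21 for Gpr6, and RiboTag libraries lie far above it for most genes.

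Some of these genes share their place with another gene, and fragments overlapping several genes were counted for each without regard to strand. Gpr26 lies within the annotated span of Fgfr2, a growth factor receptor gene on the opposite strand that extends over 2960900 bases. Per kilobase, Gpr26 held 21.5 to 29.3 times the counts of the rest of Fgfr2 in RiboTag male D1 and 13.6 to 21.8 times in D2, and 21.8 to 42.4 and 14.8 to 26.7 times in RiboTag female. In nuclear libraries the ratio was 1.46 to 2.99 in D1 (median 2.27) and 1.33 to 1.71 in D2 (median 1.41), and in whole cell libraries 3.29 to 13.3 and 1.13 to 5.17. Gpr3 overlaps the start of Cd164l2 on the opposite strand, which ran from 0 to 0.336 CPM in RiboTag libraries.

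Gpr52, the cyclic AMP-raising receptor known from D2-MSNs, lies at chr1:160574717-160579704 (RefSeq, GRCm38.p6) within Rabgap1l, a gene of a regulator of small GTPases at chr1:160219174-160793211 whose counts would take in any fragment from that place. Rabgap1l was 21.97 to 26.6 CPM in D1 and 33.5 to 40.1 CPM in D2 of RiboTag male, and 24.9 to 29.8 and 39.2 to 42.7 CPM in RiboTag female, without overlap. It too missed the FPKM filter, and fitted without it the log2 fold change was 0.52 ± 0.05 in RiboTag male (edgeR adjusted p = 3.15e-07) and 0.55 ± 0.06 in RiboTag female (edgeR adjusted p = 1.09e-05), both higher in D2. In nuclear-FACS it was -0.56 (adjusted p = 0.0269) and in whole cell-FACS 0.45 (adjusted p = 0.623). On the scale of the CPM values, set on the genes that passed the filter, its nuclear median was 196 CPM in D1 and 273 CPM in D2. The nuclear sign thus depended on the scaling. How much of the Rabgap1l difference came from Gpr52 could not be measured with counts over gene bodies.

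Markers of other cells were compared because Gpr26 is also known from cortex. The summed level of 4 cortical excitatory markers (Slc17a7, Neurod2, Neurod6 and Tbr1) was 17.8 to 42.4 CPM in RiboTag male D1 and 1.00 to 11.3 CPM in D2, and 13.6 to 39.7 and 1.32 to 7.97 CPM in RiboTag female. Of these markers, 4 of 4 tested in RiboTag male and 3 of 3 in RiboTag female were called higher in D1, and none was at 0 in every library of a group. Of all tested genes, 2.58 and 1.57% were called higher in D1 there. In RiboTag, then, cortical markers and Gpr26 were higher in the same class, and the part of cortical RNA in the Gpr26 difference was not tested.

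Within groups the 2 measures did not keep 1 order. In RiboTag male the D1 library with the most Gpr26, 30.4 CPM, had the lowest cortical sum of its group, 17.8 CPM, whereas the D2 library with the least Gpr26, 12.0 CPM, also had the lowest sum, 1.00 CPM. In RiboTag female the D1 library with the highest sum, 39.7 CPM, had the least Gpr26, 22.3 CPM, whereas the D2 library with the highest sum, 7.97 CPM, had the most Gpr26, 28.5 CPM. In nuclear-FACS all D2 sums, at most 48.5 CPM, lay within the D1 range of 22.8 to 103 CPM, and the D1 library with the most Gpr26, 51.5 CPM, had a sum of 96.9 CPM, near the top of its group. In whole cell-FACS the sum was 7.23 to 30.5 CPM in D1 and 3.05 to 18.9 CPM in D2, ranges that overlapped although those of Gpr26 did not, and the D1 library with the most Gpr26 (133 CPM) had the lowest sum of its group. These libraries were picked after their values were seen.

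Other lists also moved with the classes. Of 5 GABA interneuron markers, Sst and Npy, the 2 tested in RiboTag, were called higher in D1 in both sexes, and the list's summed level was 17.6 to 23.3 CPM in RiboTag male D1 against 9.83 to 13.9 CPM in D2. The oligodendrocyte marker Mobp was called higher in D2 in RiboTag male (0.46 ± 0.14, edgeR adjusted p = 0.0369) and was not called in RiboTag female (-0.29 ± 0.16, edgeR adjusted p = 0.403). Cholinergic interneuron markers passed the filter in neither RiboTag comparison, and their sum ran from 0.695 to 1.52 CPM in RiboTag male D1 and 4.28 to 5.65 CPM in D2, and from 0.844 to 1.41 and 2.60 to 8.19 CPM in RiboTag female. Cholinergic interneurons are known to carry Drd2. In nuclear-FACS the summed levels of GABA interneuron (45.9 to 111 against 132 to 237 CPM) and endothelial markers (17.7 to 145 against 176 to 328 CPM) were higher in every D2 library than in every D1 library. The same held there for cholinergic interneuron (10.2 to 39.0 against 42.6 to 81.7 CPM) and microglia markers (63.4 to 144.7 against 145.8 to 210.9 CPM). It also held for background relative to total counts, as given above. Sums of astrocyte, oligodendrocyte and cortical excitatory markers overlapped between the classes. The 2 GABA interneuron markers tested there had values of the opposite sign, with Sst called higher in D1 (-1.91 ± 0.37, edgeR adjusted p = 0.00935) and Npy not called (-0.88 ± 0.31, edgeR adjusted p = 0.066). None of the endothelial markers was tested there. The part of these cells in the receptor differences was not tested.

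**Figure D5:**
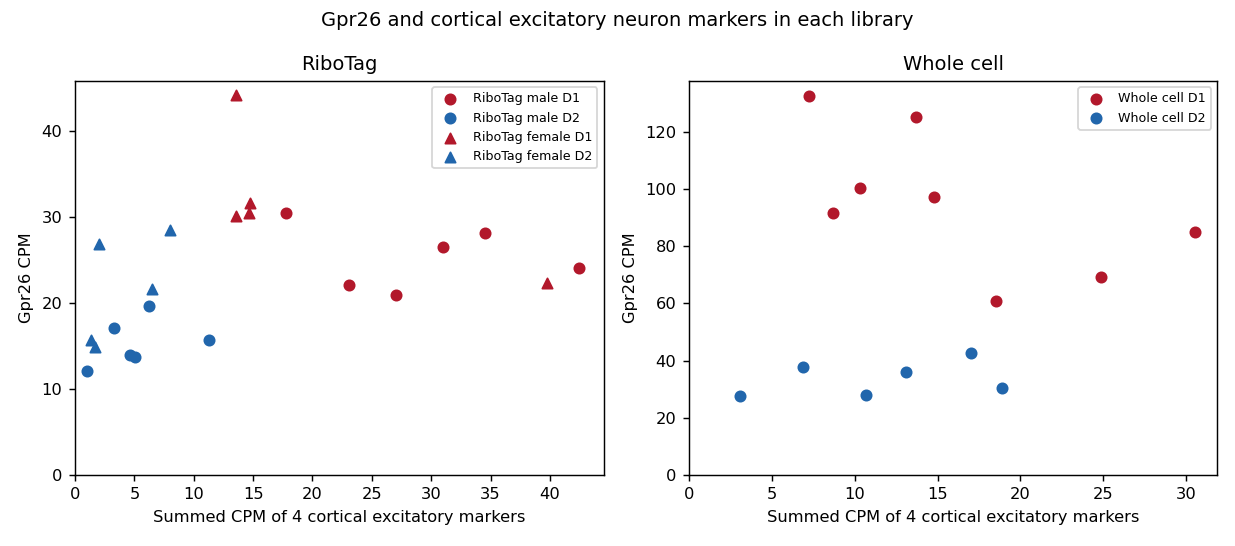
Gpr26 CPM (vertical) against the summed CPM of 4 cortical excitatory markers (horizontal) in each RiboTag library (left, circles male, triangles female) and each whole cell library (right), D1 in red and D2 in blue. RiboTag D1 libraries lie to the right of D2 libraries, at 13.6 CPM or more against 11.3 CPM or less, and in whole cell-FACS the classes overlap on the horizontal axis but not on the vertical.

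The D1-D2 difference itself was compared between methods in 1 fit of the 6 male groups, for the 6 members with a scaled count over 1 in at least 2 libraries of each method. This fit has its own gene set and scaling, so its values are not the differences between the log2 fold changes given above. Within nuclear-FACS and whole cell-FACS those were -0.84 and -0.07 for Gpr83, -0.53 and 0.23 for Gpr12, and -0.30 and -1.50 for Gpr26. The part of the scaling in the values below was not tested. The Gpr6 difference was lower in nuclear-FACS than in whole cell-FACS, by a log2 value of -4.87 ± 0.54 (edgeR adjusted p = 2.07e-07), and lower than in RiboTag male, by -3.53 ± 0.55 (edgeR adjusted p = 0.000195). That of Gpr83 was also lower in nuclear-FACS, by -1.39 ± 0.43 and -1.44 ± 0.44 (edgeR adjusted p = 0.0116 and 0.0165), and that of Gpr12 by -1.36 ± 0.48 against whole cell-FACS (edgeR adjusted p = 0.0264). By limma voom the differences of Gpr83 and Gpr12 from whole cell-FACS were not called (adjusted p = 0.103 and 0.135).

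These called differences stand against backgrounds of 36.7% of all tested genes for nuclear-FACS against whole cell-FACS and 28.3% against RiboTag, beside which the members' counts are 3 of 6 and 2 of 6. Between RiboTag male and whole cell-FACS 0.359% of genes were called and none of the 6 members. There the Gpr6 difference moved by -1.34 ± 0.47 in RiboTag (edgeR adjusted p = 0.237) and the Gpr26 difference by 0.64 ± 0.25 (edgeR adjusted p = 0.275, 95% interval 0.14 to 1.14). The groups of these contrasts are shared between them, so the 3 sets of values are not separate evidence.

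Female and male RiboTag libraries were compared in 1 fit of the 4 groups. None of the 5 tested members was called in D1, in D2 or in the difference between them, where 0, 0.0697 and 0% of all tested genes were called by edgeR. At an unadjusted p under 0.05 there was 1 of 5 members in each contrast, beside 561, 521 and 511 of 7172 genes. DESeq2 also called 0 of the members. The member with the lowest p in D1 was Gpr6, with a log2 fold change of female over male of -0.56 ± 0.19 (edgeR adjusted p = 0.482). In D2 it was Gpr26 at 0.36 ± 0.15 (edgeR adjusted p = 0.624), and in the difference Gpr101 at -0.45 ± 0.21 (edgeR adjusted p = 0.675, 95% interval -0.87 to -0.03). Gpr101 was thus called between classes in females and not in males, but that the sexes differ in this was not shown.

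For the 2 genes called in RiboTag male, the genes with the most similar log2 CPM across the 22 RiboTag libraries were ranked among 7171 genes, as a description in which the libraries fall into D1 and D2 clusters. For Gpr6 they were Adora2a, the adenosine receptor of D2-MSNs (Pearson r = 0.988), the kainate receptor gene Grik3 (0.987) and Penk, the enkephalin precursor of D2-MSNs (0.983). For Gpr26 they were Tbc1d30 (0.931), Sort1, a sorting receptor (0.917), and Nefl, the neurofilament light chain (0.915).

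Genes of the same signalling routes were counted beside the receptors from lists set with earlier results of these data known. Of 29 other orphan receptors, 8 were tested in RiboTag male, and 2 of them were called, where 3.88% of all tested genes were. These were Gpr153 (-0.97 ± 0.16) and Gpr22 (-0.58 ± 0.16), both higher in D1 (edgeR adjusted p = 0.000137 and 0.02002). In RiboTag female their values were -0.48 ± 0.21 and -0.47 ± 0.15, neither of them called (edgeR adjusted p = 0.256 and 0.0827). Of the listed receptors reported here, 0 of 11 tested in RiboTag female, 0 of 17 in whole cell-FACS and 0 of 13 in nuclear-FACS were called by edgeR, and 2, 3 and 1 of them had an unadjusted p under 0.05. The shares of all tested genes called were 2.59, 1.14 and 16.0%. Whether the 2 differences in RiboTag male depend on the method or sex was not tested.

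Of 22 genes of the stimulatory G protein and cyclic AMP route, 20 were tested in each of whole cell-FACS and the RiboTag comparisons. None was called in RiboTag, although Gng7, a G protein subunit gene, came near the limit of 0.38 in males (0.35, edgeR adjusted p = 1.79e-06). There the median log2 fold change of the list was 0.11 in males and 0.09 in females beside 0.00 over all genes. In whole cell-FACS 2 were called higher in D2, Gng7 (0.84 ± 0.17) and the phosphodiesterase gene Pde4b (1.09 ± 0.25). There 1.14% of all tested genes were called and 0.361% higher in D2. In nuclear-FACS, of 18 tested, 5 were called higher in D1, among them Ppp1r1b, the gene of DARPP-32 (-1.94 ± 0.37), the protein kinase A subunit gene Prkar1a (-0.93 ± 0.27) and Gnal, the gene of the striatal stimulatory subunit (-0.71 ± 0.16). In the other direction 2 were called, among them Prkar1b (0.43 ± 0.12). In that comparison 16.0% of all tested genes were called, 10.3% higher in D1 and 5.66% higher in D2.

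Of 17 genes that act on receptors or G proteins, Gprin3 was called higher in D2 in RiboTag male (0.48 ± 0.08) and female (0.53 ± 0.08), of 13 tested in each, and Gprin1 higher in D1 in whole cell-FACS (-0.69 ± 0.16), of 14. Of all tested genes, 1.30 and 1.02% were called higher in D2 in RiboTag male and female, and 0.783% higher in D1 in whole cell-FACS. In nuclear-FACS 3 of 14 were called, all higher in D1, among them Rgs4 (-2.24 ± 0.45), where 16.0% of all tested genes were called and 10.3% higher in D1. Of 4 genes that make or cut the proSAAS precursor, 3 were tested in each method, and the precursor gene Pcsk1n was called in nuclear-FACS alone, higher in D1 (-2.43 ± 0.47).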

How the data were processed

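Stranded, ribosome-depleted paired-end libraries were aligned by the authors with HISAT2 2.0.5 to GRCm38. The authors deposited raw counts of fragments per Ensembl gene, which featureCounts took from exons and introns alike and without strand. A fragment was counted for every gene it overlapped, and multiply aligned fragments were left out. The 49 columns gave 47 libraries, because a column named as a second run of whole cell D1 number 1 and a further lane of D2 number 3 were summed with their first runs. This assignment is in doubt, since the series' design gives 9 D1 and 7 D2 whole cell libraries and the sample titles 8 and 8. Counted apart, the whole cell columns number 9 D1 and 7 D2, the same as in the design. The study states that each sample came from a separate mouse. No column matched whole cell D2 numbers 7 and 8 by name, and these are not used here. Identifiers were matched to GENCODE M21 (52489 of 52636, 99.72%). Gpr52 was not analysed here, and receptor proteins were not compared.

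The quasi-likelihood test of edgeR 4.0.16 (R 4.3.3, TMM, Benjamini-Hochberg over all tested genes) was used for each comparison, with DESeq2 1.42.0 and limma 3.58.1 as alternatives. Sequences and figures used Python 3.11.15, Biopython 1.88 and matplotlib 3.10.9. As in the study's methods, a tested gene exceeded 1 scaled count (FPM) in 2 or more libraries of its method. Its FPKM on the gene span also had to reach 1 in any nuclear or whole cell library without passing 50000, or 0.1 in 2 RiboTag libraries. Effective library sizes for FPKM came from DESeq2. The standard error (SE) is the absolute log2 fold change over the square root of F. The test was checked on simulated counts, and intervals cover 95%. Although each library is from another mouse, p-values measure only the spread between these samples.

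Members and lists were chosen with earlier results of these data known. A few list genes, and 1 list, are not reported here, and list counts and sums leave those genes out. Named are all members, genes overlapping them, the most similar genes and, of each list's called genes, up to 4 with the largest difference in RiboTag male and up to 2 more in whole cell-FACS. The 4 exact tests and the omission of single libraries from groups of over 5 were added after the data were seen. Libraries sharing a number were not treated as pairs, since their deviations from the group means did not go together.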

Additional observations from a re-analysis of the deposited data

Results flagged for a closer look

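In 4 of 64 groups of a gene and a condition, 1 library stood apart from the rest of its group, where chance alone gives about 1 in 20, or 3.2. Gpr101 was 6.26 CPM in nuclear D1 number 6 and 0.340 to 1.83 CPM in the other 5 libraries of that group. Gpr83 was 60.0 CPM in whole cell D2 number 1 and 19.5 to 27.0 CPM in the others. Gpr149 was 1.52 CPM in RiboTag male D1 number 6 against 2.37 to 2.82 CPM, and Gpr3 was 0.347 CPM, or 11 counts, in RiboTag female D1 number 5 against 0.0919 to 0.160 CPM.

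The D1-D2 difference of 3 genes differed between methods by a test of the difference itself, in a fit with its own gene set and scaling. For Gpr6 the log2 fold change was lower in nuclear-FACS than in whole cell-FACS (-4.87, edgeR adjusted p = 2.07e-07) and than in RiboTag male (-3.53, edgeR adjusted p = 0.000195). For Gpr83 the differences were -1.39 (edgeR adjusted p = 0.0116) and -1.44 (edgeR adjusted p = 0.0165), and for Gpr12, against whole cell-FACS, -1.36 (edgeR adjusted p = 0.0264). At the same time 36.7 and 28.3% of all genes differed between these methods. Background relative to total counts was higher in every nuclear D2 library than in every nuclear D1 library. The part of either in these differences was not tested.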

How the results depend on the processing

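Gpr6 was called higher in D2 in whole cell-FACS and both RiboTag comparisons under every alternative run, and Gpr26 was called higher in D1 in RiboTag male under every one. Leaving out 1 library at a time gave 0 to 0 called members in nuclear-FACS, 2 to 3 in whole cell-FACS, 2 to 2 in RiboTag male, 2 to 3 in RiboTag female and 0 to 0 between the sexes. Without the FPKM filter, or with summed exons as its length, 3 members were called in nuclear-FACS (Gpr6, Gpr26 and Gpr83, higher in D1) and 1 in whole cell-FACS (Gpr6), where Gpr26 then had an adjusted p of 0.0602 and 0.179. Over all genes, calls without that filter were 8082 against 1475 in nuclear-FACS, 35 against 187 in whole cell-FACS, 481 against 263 in RiboTag male and 279 against 183 in RiboTag female, and with summed exons 8305, 27, 480 and 277. They were 707 in whole cell-FACS by DESeq2, 2311 in nuclear-FACS after background subtraction (1248 higher in D2 and 1063 in D1, against 522 and 953), 174 in RiboTag male with further cutoffs of the study, 369 and 546 in whole cell-FACS with the repeat run or the further lane as a library of its own, and 97 against 38 for RiboTag against whole cell-FACS by limma voom. The counts of 369 and 546 treat runs of 1 mouse as separate mice if the columns are what their names say. Leaving out 1 library moved the calls to between 59 (without D1 number 1) and 644 (without D1 number 8) in whole cell-FACS. In nuclear-FACS it moved them to as few as 464 (without D2 number 5). Between the sexes they were 10 against 5 in D2 by DESeq2 and 28 against 0 in D1 without female D1 number 4.

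Reversed signs were small. Gpr83 in whole cell-FACS was 0.088 by DESeq2 and 0.086 with its size factors, 0.15 without the FPKM filter and 0.14 with summed exons, and between -0.31 and 0.17 with 1 library left out. Its female-male value ran from -0.0014 to 0.109 in D1 and from -0.029 to 0.085 in the difference between classes with 1 library left out. Gpr26 between nuclear-FACS and RiboTag was 0.021 by limma voom, where also only 1 member, Gpr6, differed between nuclear-FACS and whole cell-FACS. The cause was not tested.

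Deviations of same-numbered libraries correlated between -0.285 and 0.212 in nuclear-FACS, -0.222 and 0.106 in whole cell-FACS, -0.0253 and 0.153 in RiboTag male and -0.0501 and -0.0197 in RiboTag female. There were 3, 6, 6 and 2 such pairs. In nuclear-FACS and RiboTag female the results below therefore leave out many libraries and do not describe the full groups. With the replicate number as a block, over these pairs only, 0, 3, 2 and 2 members were called in nuclear-FACS, whole cell-FACS, RiboTag male and RiboTag female. The same libraries without the block gave 0, 3, 2 and 1. Under the block 1 member, Gpr6, differed between nuclear-FACS and whole cell-FACS, 0 differed between nuclear-FACS and RiboTag, where Gpr26 was 0.099, and in RiboTag female Gpr26 was called (adjusted p = 0.0152) and Gpr101 was not (adjusted p = 0.334, and 0.374 on the same libraries without the block). Gpr101 in whole cell-FACS had an adjusted p of 0.00541 under the block and 0.0325 on the same libraries without it. The block left 0 calls of all genes in nuclear-FACS, 142 in whole cell-FACS, 259 in RiboTag male, 96 in RiboTag female and 698, 11 and 7 between methods, and 1, 719, 263 and 79 came from the same libraries without it within methods.

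RiboTag libraries held at most 13 counts of Gpr3 and 31 of Gpr139.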
